A study of Arabidopsis thaliana with 12 samples.

Results

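The 3 libraries labelled arf2 gnc gnl were compared with the 3 wild-type (WT) libraries, across all genes of the array. They were chosen by the genotype in the sample labels and are 6 of the 12 libraries of the series. Each library is RNA of whole Arabidopsis thaliana seedlings of accession Col-0, 10 days old, untreated, raised on GM medium under 150 µE of white light with 16 h of light and 8 h of darkness, and collected in mid-photoperiod. The mutant libraries are labelled as carrying the arf2-8 allele together with gnc and gnl, whose alleles the labels do not give, and the WT libraries carry none of them. The other libraries are the arf2 (arf2-8) and gnc gnl mutants, 3 each, and enter below only as values set beside the comparison. The 3 samples per genotype are given as biologically independent. As the ARF2 and GNL probes below go against the label, the mutant libraries go by the name labelled libraries below, and every direction given rests on that label.

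ARF2 is an auxin response factor, one of the DNA-binding proteins through which plants turn an auxin signal into transcription, and it acts mostly as a repressor. Plants that lack it are known for large seeds and late flowering and senescence. GNC and its paralog GNL, whose other name is CGA1, belong to the class B GATA factors. They are known to drive greening and chloroplast development and to act downstream of gibberellin. The comparison addresses what differs in seedlings labelled as lacking all 3 factors.

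Signals are given on a scale on which the 75th percentile of each array is 1000 units, and changes as log2 of the labelled libraries minus log2 of WT. A gene is called when limma's moderated test gives an adjusted p under 0.05 over all 19020 genes tested, and "rose" and "fell" are used only of called genes. All ± values of changes are standard errors (n = 3 libraries per genotype unless stated). Between 68.3% and 70.2% of the probes were well above background on the labelled arrays, and between 66.4% and 68.0% on the WT arrays. Across the tested genes, log2 levels correlated at 0.992 to 0.996 among the labelled arrays, at 0.995 among the WT arrays, and at 0.981 to 0.988 between them. Labelled replicates 1 and 2 lay on slide 2, labelled replicate 3 lay on slide 3, and all 3 WT arrays lay on slide 1, so slide and genotype cannot be told apart within this comparison. Of the markers used to check the labelled tissue, 18 of 19 root, 15 of 16 root hair, all 14 leaf mesophyll and all 13 guard cell genes were bright enough to be tested, against 2 of 13 pollen and flower genes.

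ARF2, GNC and GNL were examined before all other genes. GNC (AT5G56860) gave 97.6, 86.5 and 85.9 units in the labelled libraries, against 1475, 1714 and 1414 units in WT. The labelled arrays lay far below the WT arrays, and GNC fell 17.0-fold (log2 change -4.09 ± 0.13, adjusted p = 1.17e-07). A second GNC probe read 69.4, 64.7 and 121 units in the labelled libraries, against 1248, 1355 and 1159.7 units in WT, a log2 change of -3.94. ARF2 (AT5G62000) gave 1051, 1008 and 1308 units in the labelled libraries, against 1879, 1762 and 1919.6 units in WT. The labelled arrays were all below the WT arrays but kept 56.7%, 54.4% and 70.6% of the WT mean, and the change did not pass the test (log2 -0.73 ± 0.56, adjusted p = 0.507). In the arf2 libraries the same probe read 38.4, 7.26 and 56.3 units, with a geometric mean of 1.35% of that of WT. GNL (AT4G26150) gave 357, 382 and 383 units in the labelled libraries, against 219.6, 243 and 180.0 units in WT. Here the labelled arrays were all above the WT arrays, at 168%, 180% and 180% of the WT mean, and the change did not pass (log2 0.81 ± 0.33, adjusted p = 0.214). The gnc gnl libraries read 14.3, 4.90 and 5.09 units on that probe.

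The labelled libraries thus lacked most GNC signal while ARF2 and GNL signal was present. With only the 6 arrays of these genotypes in the fit, the spread of the near-background mutant values no longer enters, and both genes passed the test with the same changes (adjusted p = 0.0182 for ARF2 and 0.0149 for GNL). Where the probes lie relative to the mutations is not given in the sources used here, so these signals do not show whether a transcript was functional.

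**Figure D1:**
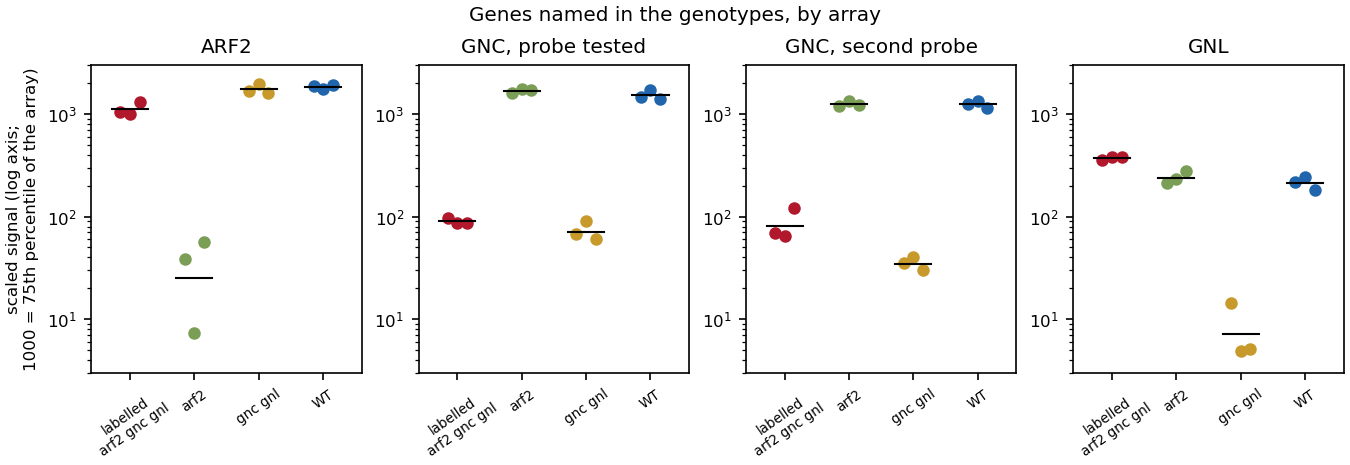
Scaled signal of the ARF2, GNC (both probes) and GNL probes on each of the 12 arrays, on a log axis, with a bar at the geometric mean of each genotype. The first GNC probe averages 89.8 units on the labelled arrays, against 1529 units in WT. On the labelled arrays ARF2 stays at 1008 units or more and GNL above its WT level, while both are far lower in the mutants named for them, arf2 and gnc gnl.

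The genes beside the 3 loci were read as well, in the order of the annotation. Next to GNL, BGAL12 (AT4G26140), a beta-galactosidase gene, gave 593, 710.0 and 569 units in the labelled libraries, against 390.4, 347 and 347 units in WT. It rose (log2 change 0.78 ± 0.12, adjusted p = 0.00701), and set against the same WT arrays its log2 change was 1.46 in gnc gnl and -0.22 in arf2. The gene beyond it, AT4G26130, also rose, with a log2 change of 0.38 ± 0.078 (adjusted p = 0.0324), 0.47 in gnc gnl and 0.33 in arf2. On the other side of GNL, ACHT1 did not pass (-0.31 ± 0.076, adjusted p = 0.0609). None of the 3 tested genes on each side of ARF2 or of GNC was called. BGAL12 and AT4G26130 were named after their values were seen.

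Over all genes, 430 of 19020 were called, which is 2.26%. Of these, 252 rose (1.32% of the genes tested) and 178 fell (0.936%). As measured, the rises were the larger changes. The median log2 change was 1.09 among the genes that rose and -0.49 among those that fell, and a change of 1 log2 unit or more was seen in 130 of the 252 and in 23 of the 178. Of the 252, 57 were not well above background on any WT array, so the sizes of those rises are uncertain. All 430 called genes had labelled arrays entirely above or below the WT arrays, which was so for 5697 of the genes tested (30%). The median of all genes was -0.0075, and 48.1% of them lay above WT. Leaving out 1 array at a time gave 128 genes without WT replicate 2 and 129 without labelled replicate 2, the lowest counts, and 218 without labelled replicate 3, the highest. A set of 110 of the 430 was called in each of these 6 fits, 81 higher and 29 lower.

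These counts depended on the background correction and on the slide. A normexp correction of the raw spot signal left 15 genes, all among the 430, and a fit with slide as a fixed block left 6. No slide holds both genotypes, so that fit compares them only through the arf2 arrays, which lie on slides 1 and 2. GNC was called in all 15 alternative fits.

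**Figure D2:**
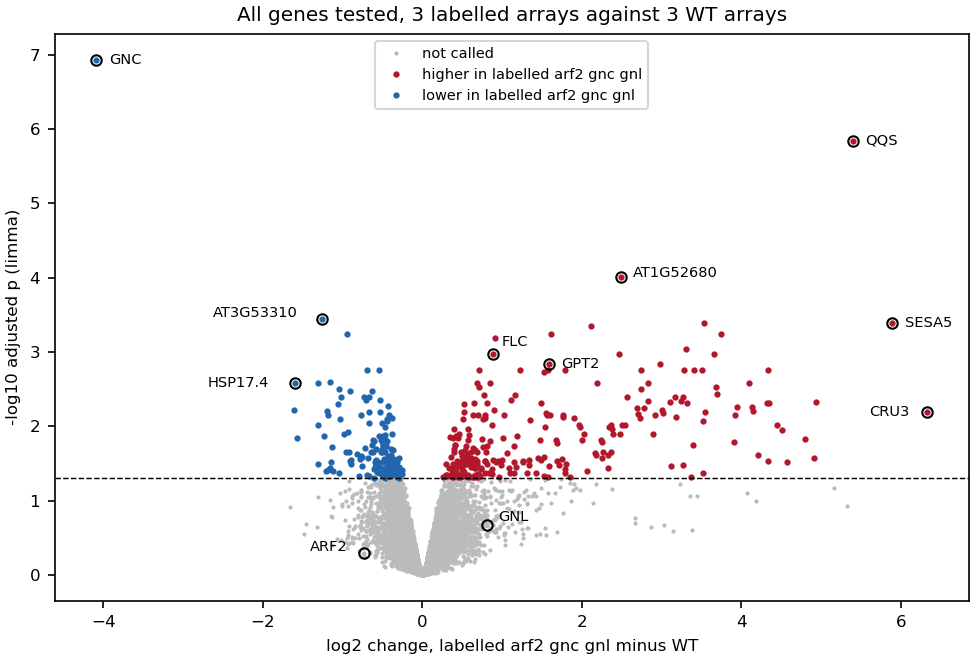
Log2 change of the labelled libraries minus WT (horizontal) against -log10 of limma's adjusted p (vertical) for the 19020 genes tested, with the threshold as a dashed line. The 252 genes that rose reach a log2 change of 6.33, while GNC at -4.09 stands apart from the other genes that fell. ARF2 and GNL lie below the line.

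Seed storage and late embryogenesis genes showed the largest rises. These genes encode the proteins that are packed into the embryo as it fills and dries, and are normally lost as the seedling establishes. Of 19 such genes, all tested, 12 rose, none fell and 7 did not pass, where 1.32% of all genes rose. The list's median log2 change was 3.91, against -0.0075 for all genes, and all 19 lay above WT. The 7 genes that were dim in WT were bright enough to be tested only through mutant arrays, so their place above WT was partly set by that filter. With these 7 at their lower bounds, the list's median was 2.77. Under a stricter filter, which asked for all 3 labelled and all 3 WT arrays well above background, 10 genes were tested. Of these 10, all lay above WT and 8 were called higher, at a median of 2.91. In RNA of whole seedlings, more cells of a type and more RNA per cell cannot be told apart.

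The storage globulin gene CRU3 (AT4G28520) gave 20795, 14849 and 5886 units in the labelled libraries, against 472, 89.4 and 82.4 units in WT. Every labelled array exceeded every WT array by over an order of magnitude, and CRU3 rose 80.6-fold (log2 change 6.33 ± 0.92, adjusted p = 0.00643, and 5.37 on its other probe). CRU1 (AT5G44120), another cruciferin, gave 19332, 13498 and 5818 units in the labelled libraries, against 854, 652 and 802 units in WT (log2 change 3.91 ± 0.69, adjusted p = 0.0161). SESA5 (AT5G54740), a 2S albumin storage protein gene, gave 731, 324 and 398 units in the labelled libraries, against 6.14, 5.89 and 12.4 units in WT. It was not well above background on any WT array and rose at least 17.58-fold (adjusted p = 4.05e-04). That bound sets the mean of the labelled arrays against, per WT array, the higher of the probe's signal and the lowest signal counted as well above background. On the same measure PAP85 (AT3G22640), a vicilin-like storage protein gene, rose at least 6.81-fold (adjusted p = 0.00966) and AT3G22490 rose at least 5.06-fold (adjusted p = 0.00177).

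Genes of desiccation tolerance moved the same way. EM6 (AT2G40170), a late embryogenesis abundant protein gene, gave 3369.5, 2900.3 and 2199.7 units in the labelled libraries, against 568, 664 and 847 units in WT and rose by 2.02 ± 0.34 log2 units (adjusted p = 0.0129). EM1 (AT3G51810), of the same family, rose by 3.39 ± 0.60 (adjusted p = 0.0177), ECP63 (AT2G36640) by 1.80 ± 0.37 (adjusted p = 0.0324) and AT3G15670 by 2.71 ± 0.40 (adjusted p = 0.00677). The members that did not pass included the 2S albumin genes SESA1 to SESA4 and the cruciferin gene CRU2, whose labelled arrays were far apart. SESA3 (AT4G27160) read 3124, 1782 and 66.4 units in the labelled libraries, against 142, 6.27 and 6.39 units in WT (adjusted p = 0.117). CRU2 (AT1G03880) read 1083, 437 and 80.7 units in the labelled libraries, against 25.5, 5.64 and 5.73 units in WT (adjusted p = 0.0669). These and the next values of genes that did not pass were named after they were seen.

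The labelled libraries differed among themselves in these genes. Labelled replicate 1 was the highest of the 3 for all 19 genes, and labelled replicate 3 the lowest for 18. Relative to the WT mean of each gene, the mean log2 level of the list was 4.74, 4.04 and 2.47 in labelled replicates 1 to 3, against 0.37, -0.35 and -0.022 in WT replicates 1 to 3. The groups did not overlap, and labelled replicate 3 stood between the other labelled arrays and WT. SESA4 (AT4G27170) read 463, 118 and 4.23 units in the labelled libraries, against 5.33, 6.11 and 6.25 units in WT, where the third labelled array and all WT arrays were not well above background. The called count of the list was 12 without labelled replicate 3, 4 without labelled replicate 2 or WT replicate 2, and 5 without labelled replicate 1 or WT replicate 1. It was 7 without WT replicate 3, and 0 under normexp (median 1.96) or with slide as a fixed block (median 4.64), where all 19 still lay above WT.

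**Figure D3:**
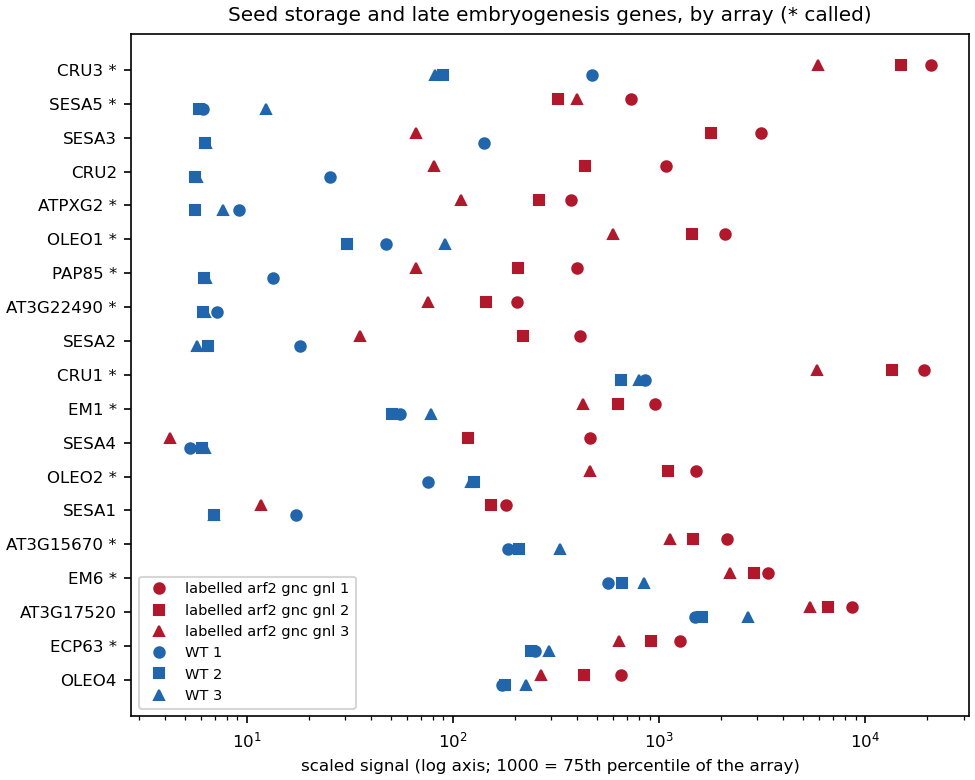
Scaled signal (log axis) of the 19 seed storage and late embryogenesis genes on each labelled array (red) and each WT array (blue), with called genes starred. Red points lie right of blue ones in 16 of the 19 genes, and the third labelled array (triangle) is the lowest red point in 18. Of all genes tested, 14.5% lay higher without overlap.

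Oil body and seed vacuole genes extended this group. Oil bodies are the storage lipid droplets of the embryo, coated by oleosins, caleosins and steroleosins. The oleosin gene OLEO1 (AT4G25140) gave 2092, 1442 and 596 units in the labelled libraries, against 47.5, 30.5 and 91.6 units in WT, and it rose 23.8-fold (log2 change 4.57 ± 0.92, adjusted p = 0.0304). OLEO2 (AT5G40420) rose by 3.12 ± 0.65 log2 units (adjusted p = 0.0342). The caleosin-type genes ATPXG2 (AT5G55240, adjusted p = 0.0268) and ATS1 (AT4G26740, adjusted p = 0.0291) rose at least 8.51-fold and at least 11.9-fold from below background in WT. OLEO1, OLEO2 and ATPXG2 are among the 19 genes above. In a list of 14 oil body and vacuolar seed genes drawn up after the values were seen, which shares these and OLEO4 with the seed list, 10 rose, where 1.32% of all genes rose, and all 14 lay above WT, with a median of 2.84. In this list, 4 genes were dim in WT and were tested only through mutant arrays, so their place above WT was partly set by the filter. The list held 7 calls without labelled replicate 3, 4 without WT replicate 3 and 2 without any of the other 4 arrays. It also held HSD1 (AT5G50600), a steroleosin gene well above background on 1 WT array, at 4.22 ± 0.80 (adjusted p = 0.0241), and the seed vacuole aquaporin genes TIP3;1 (AT1G73190, 2.57 ± 0.34, adjusted p = 0.00398) and BETA-TIP (AT1G17810, at least 11-fold higher, adjusted p = 0.00711). OLEO1 was called in none of the 6 fits that left out an array, TIP3;1 and BETA-TIP in all 6.

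Genes that break down seed reserves moved less. The glyoxylate cycle lets a germinating seedling turn stored fat into sugar, and its key enzymes are isocitrate lyase and malate synthase. The malate synthase gene MLS (AT5G03860) gave 1334, 966 and 723 units in the labelled libraries, against 361, 309 and 345 units in WT, and it rose by 1.53 ± 0.25 log2 units (adjusted p = 0.0101). The isocitrate lyase gene ICL (AT3G21720) gave 8199, 6104 and 5582 units in the labelled libraries, against 2610.2, 2253 and 3104 units in WT and rose by 1.31 ± 0.29 (adjusted p = 0.0425), though in none of the fits without 1 array. KAT5 (AT5G48880), a thiolase gene of fatty acid breakdown, rose by 0.52 ± 0.10 (adjusted p = 0.0272). Of 19 reserve mobilisation genes listed after the values were seen, these 3 rose, where 1.32% of all genes rose. The other 16 did not pass, and the list's median was 0.083.

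Among the remaining large rises, most carried no symbol in the annotation. AT1G54870 gave 1712, 1135 and 475 units in the labelled libraries, against 53.8, 24.0 and 25.1 units in WT and rose 30.5-fold (log2 change 4.93 ± 0.67, adjusted p = 0.00464). It was well above background on 1 of the 3 WT arrays. AT5G45690 rose 20.3-fold (adjusted p = 0.00493) and was so on 2 of the 3, while AT3G56350 (adjusted p = 0.0150) and AT1G65090 (adjusted p = 0.0113) rose at least 9.98-fold and at least 8.09-fold. AT1G52680 had one of the 5 smallest p values, with 44.1, 29.6 and 29.5 units in the labelled libraries, against 5.39, 6.29 and 6.40 units in WT (at least 1.30-fold higher, adjusted p = 9.85e-05). Of the 252 genes that rose, 57 were not well above background on any WT array, and labelled replicate 3 was the lowest labelled array for 158. For comparison, labelled replicate 3 was the lowest labelled array for 54 of the 178 genes that fell.

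The same seed genes were read in the single and double mutants. CRU3 stood 7.71 log2 units above WT in arf2 and 3.94 in gnc gnl, EM6 2.85 and 1.03, and EM1 4.49 and 0.043. Not all 19 genes were ordered this way. CRU2, SESA3, SESA4 and PAP85, each well above background on 1 WT array or none, had higher mean levels in gnc gnl than in arf2. These values share the 3 WT arrays with the comparison, so they are not independent of it. Between the labelled libraries and gnc gnl, 11.7% of all genes were called, counting both directions. Tested directly with limma, 6 of the 19 genes were higher in the labelled libraries than in gnc gnl and 13 did not pass. They were EM1 (log2 3.35, adjusted p = 0.00768, well above background on 2 gnc gnl arrays), AT3G15670 (1.92, adjusted p = 0.0137), ECP63 (1.67, adjusted p = 0.0177), AT3G17520 (1.61, adjusted p = 0.0394), SESA5 (1.66, adjusted p = 0.0497) and AT3G22490 (adjusted p = 0.00121), which gets no size as no gnc gnl array was well above background. Against arf2, ECP63 was lower in the labelled libraries (-1.65, adjusted p = 0.0249) and 18 genes did not pass, where 8.91% of all genes were called in either direction. CRU3 passed neither test (2.39, adjusted p = 0.113 against gnc gnl, -1.37, adjusted p = 0.367 against arf2). All 3 gnc gnl arrays lay on slide 3 with labelled replicate 3, and arf2 replicates 2 and 3 on slide 2 with labelled replicates 1 and 2. Slide and genotype are therefore mixed in both direct tests.

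QQS (AT3G30720), a gene known for its effect on starch content and on the split of carbon and nitrogen, changed with the second smallest p of all genes. It gave 591, 687 and 468 units in the labelled libraries, against 18.1, 11.5 and 12.1 units in WT. The WT arrays were not well above background and the labelled arrays all well above it, and QQS rose at least 22.2-fold (adjusted p = 1.45e-06). Tested directly, QQS was higher in the labelled libraries than in gnc gnl (log2 4.95, adjusted p = 7.32e-06, with 1 gnc gnl array well above background) and did not pass against arf2 (0.77, adjusted p = 0.0659). The slide layout given above limits these direct tests as well. GPT2 (AT1G61800), which encodes a plastid glucose-6-phosphate transporter induced by sugar, gave 231, 299.9 and 232 units in the labelled libraries, against 75.3, 75.9 and 103 units in WT and rose by 1.59 ± 0.17 log2 units (adjusted p = 0.00145, and 1.23 on its other probe). Of 34 starch and sugar response genes these 2 rose, where 1.32% of all genes rose, 32 did not pass, and the median was 0.0092. Both were called whichever array was left out. Under normexp neither passed (adjusted p = 0.104 for QQS and 0.303 for GPT2), and with slide as a fixed block QQS was called and GPT2 was not (adjusted p = 0.121).

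Flavonoid and anthocyanin genes, which make the red and ultraviolet-absorbing pigments, lay above WT in all 17 tested cases, and in 13 of the 17 under normexp, where none was called. The median was 0.55, and 2 of the 17 rose, where 1.32% of all genes rose. MYB75 (AT1G56650), an activator of anthocyanin synthesis, gave 366, 284 and 248 units in the labelled libraries, against 98.6, 92.8 and 119 units in WT and rose by 1.52 ± 0.34 log2 units (adjusted p = 0.0472). TT7 (AT5G07990), the flavonoid hydroxylase gene, gave 689, 536 and 501 units in the labelled libraries, against 356, 326 and 382 units in WT and rose by 0.69 ± 0.14 (adjusted p = 0.0317). Labelled and WT arrays did not overlap in 14 of the 17 genes, against 14.5% of all genes that did not overlap and were higher. MYB75 was called in none of the 6 fits that left out an array, and TT7 in 1.

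Of the flowering genes, 3 repressors rose. FLC (AT5G10140), the MADS-box repressor that holds back flowering until winter has passed, gave 517, 461 and 410.3 units in the labelled libraries, against 239, 266 and 242 units in WT. The groups were clearly apart, the log2 change was 0.89 ± 0.09 (adjusted p = 0.00107), and the other FLC probes read 0.90 and 0.95. MAF4 (AT5G65070), a relative of FLC, gave 174, 235 and 167 units in the labelled libraries, against 69.3, 64.0 and 57.9 units in WT and rose by 1.58 ± 0.18 (adjusted p = 0.00177). SMZ (AT3G54990), an AP2-type repressor of flowering, rose by 0.53 ± 0.11 (adjusted p = 0.0291). Of 22 flowering time and floral identity genes these 3 rose and 19 did not pass, where 1.32% of all genes rose. The median was 0.25, and 0.044 under normexp and 0.057 with slide as a fixed block, where none of the 22 was called. FLC and MAF4 were called whichever array was left out, SMZ in none of those 6 fits.

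Among the other class B GATA genes, GATA17 (AT3G16870) gave 1448, 1586 and 1507 units in the labelled libraries, against 1249, 1226 and 1056 units in WT and rose by 0.37 ± 0.083 log2 units (adjusted p = 0.0484). It was called in none of the 6 fits without 1 array. GATA16 (adjusted p = 0.0512), which was not well above background in WT, and GATA15 (log2 0.30, adjusted p = 0.0818), named after their values were seen, lay above WT with no overlap and did not pass. Of all genes, 14.5% lay above WT without overlap, 1.32% rose and 0.936% fell. Of the 10 class B genes tested, GNC fell, GATA17 rose and 8 did not pass.

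Auxin signalling genes showed few calls. Besides ARF2, the 14 other auxin response factor genes tested did not pass, and the list's median was 0.059. Of 25 Aux/IAA genes, which encode repressors of auxin signalling, IAA34 (AT1G15050) rose, with 30.9, 36.1 and 36.2 units in the labelled libraries, against 20.7, 22.2 and 20.9 units in WT (at least 1.32-fold higher, as it was not well above background in WT, adjusted p = 0.0218). Of 26 GH3 and SAUR genes, which respond rapidly to auxin, GH3.9 (AT2G47750) rose by 0.52 ± 0.11 (adjusted p = 0.0443). Under normexp the log2 changes of these dim genes were -0.52 for IAA34 and -0.20 for GH3.9. None of the 24 auxin synthesis and transport genes, 28 gibberellin genes, 37 cytokinin genes, 29 ethylene genes or 20 brassinosteroid genes was called by limma (2.26% of all genes were), and their medians ran from -0.043 to 0.027. At an unadjusted p under 0.05 these lists held 4, 8, 4, 4 and 3 genes in that order, and the auxin response factors 6. Over all genes, 3574 of 19020 were under that unadjusted threshold.

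Genes of the photosynthetic apparatus lay slightly below WT and none was called by limma. All 21 light-harvesting genes were tested, 19 lay below WT, and the median log2 change was -0.17. Of 33 photosystem subunit genes, 30 lay below WT at a median of -0.18, and of 37 chlorophyll synthesis genes 34 did so at a median of -0.21. Calvin cycle and photorespiration genes lay below WT in 28 of 30 cases, at -0.17. At an unadjusted p under 0.05 there were 5 light-harvesting, 6 photosystem, 14 chlorophyll synthesis and 8 Calvin cycle genes, beside 3574 of all 19020 genes. Under quantile normalization all 4 medians moved toward 0, to -0.089 for light harvesting, -0.089 for photosystems, -0.19 for chlorophyll synthesis and -0.097 for the Calvin cycle. The chlorophyll synthesis median was -0.11 under normexp and -0.093 with slide as a fixed block, where 12 of its 37 genes lay above WT. WT replicate 2 was the highest of the WT arrays in each of these lists, as a mean log2 level of 0.13, 0.14, 0.10 and 0.12 above the WT mean in the order given. The labelled arrays stood at -0.13, -0.22 and -0.087 for light harvesting, against -0.085, 0.13 and -0.040 for WT, so labelled replicate 3 lay next to WT replicate 1. Named after their values were seen, PORC (AT1G03630), a protochlorophyllide reductase gene, was at -0.38 ± 0.094 (adjusted p = 0.0685) and PSAL (AT4G12800), a photosystem I subunit gene, at -0.35 ± 0.094 (adjusted p = 0.0858).

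Genes that regulate plastid transcription did include calls. SIG2 (AT1G08540), a sigma factor of the plastid RNA polymerase, gave 1356, 1416 and 1431 units in the labelled libraries, against 1777, 2002 and 1679 units in WT and fell by 0.37 ± 0.083 on the log2 scale (adjusted p = 0.0444). SIG4 (AT5G13730), a sigma factor known for transcription of a plastid NDH gene, gave 1318, 1198 and 1286 units in the labelled libraries, against 1626, 1692 and 1589 units in WT (log2 change -0.37 ± 0.076, adjusted p = 0.0342). This list also holds the GLK factors and plastid division genes. Of its 18 genes, SIG2 and SIG4 fell, where 0.936% of all genes fell, 16 did not pass, and 15 lay below WT. Both were called in none of the 6 fits that left out 1 array.

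Further plastid genes among the 178 that fell were grouped after their values were seen, so the counts describe these arrays and support nothing further. The NDH complex takes part in cyclic electron flow around photosystem I. Of 24 genes for its nuclear-encoded subunits and assembly factors, 4 fell, where 0.936% of all genes fell, none rose and 23 lay below WT, at a median of -0.28. CRR7 (AT5G39210), an assembly factor, gave 885, 850.2 and 814 units in the labelled libraries, against 1385, 1412 and 1245 units in WT and fell by 0.66 ± 0.081 on the log2 scale (adjusted p = 0.00398). The subunit genes PnsB3 (AT3G16250, -0.60 ± 0.12, adjusted p = 0.0301) and PnsB1 (AT1G15980, -0.40 ± 0.086, adjusted p = 0.0396) and the assembly factor gene CRR1 (AT5G52100, -0.37 ± 0.078, adjusted p = 0.0360) fell too. Of 15 chloroplast RNA editing factors, CRR28 (AT1G59720, -0.46 ± 0.10), OTP84 (AT3G57430, -0.51 ± 0.11) and DYW1 (AT1G47580, -0.42 ± 0.094) fell, and all 15 lay below WT at a median of -0.31. CRR7 was called in all 6 fits that left out an array and under normexp. PnsB3, PnsB1, CRR1 and DYW1 were called in none of those 6, and CRR28 and OTP84 in 1 each.

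Thylakoid assembly and pigment genes gave the same picture of small changes. Of 21 genes for thylakoid assembly, chaperonins and plastid proteases, 8 fell, where 0.936% of all genes fell, and 20 lay below WT, at a median of -0.26. Cpn60beta2 (AT3G13470), a chaperonin subunit gene, gave 4272, 4306 and 4078 units in the labelled libraries, against 6444, 7016 and 5441 units in WT. CCB4 (AT1G59840), which helps attach a haem to cytochrome b6, gave 895, 866 and 872 units in the labelled libraries, against 1392 and 1173 units in WT (n = 2 in WT, where an outlier spot was removed). The second CCB4 probe read -0.14, much closer to WT. The log2 changes were -0.57 ± 0.12 (adjusted p = 0.0412) for Cpn60beta2 and -0.54 ± 0.11 (adjusted p = 0.0420) for the tested CCB4 probe. The protease genes FTSH8 (AT1G06430, -0.39) and FTSH11 (AT5G53170, -0.39), the kinase gene STN7 (AT1G68830, -0.28) of state transitions, the thioredoxin-like gene HCF164 (AT4G37200, -0.37), EX2 (AT1G27510, -0.34) of singlet oxygen signalling and the chloroplast development gene VAR3 (AT5G17790, -0.34) fell as well, with adjusted p from 0.0305 to 0.0455. Of 24 plastid isoprenoid and carotenoid genes, 3 fell and 23 lay below WT, at a median of -0.26. These were HDR (AT4G34350, -0.39 ± 0.075, adjusted p = 0.0245), the last enzyme of the plastid isoprenoid pathway, the synthase-like gene DXPS3 (AT5G11380, -0.39 ± 0.077, adjusted p = 0.0293) and the phytoene desaturase gene PDS3 (AT4G14210, -0.38 ± 0.075, adjusted p = 0.0298). The assembly list held 2 calls without WT replicate 3, 1 without labelled replicate 3 and 0 without any of the other 4 arrays. The isoprenoid list held 3 without labelled replicate 3, 1 without WT replicate 3 and 0 without any of the other 4.

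A few secondary wall genes fell in small steps, in a list again drawn up after the values were seen. Secondary walls are the lignified walls of xylem vessels and fibres. MYB46 (AT5G12870), a master regulator of their deposition, gave 94.0, 85.8 and 86.3 units in the labelled libraries, against 134, 123 and 127 units in WT and fell by 0.53 ± 0.076 on the log2 scale (adjusted p = 0.00636). FLA11 (AT5G03170), a fasciclin-like wall protein gene, fell by 0.50 ± 0.093 (adjusted p = 0.0218), the vascular patterning gene COV1 (AT2G20120) by 0.50 ± 0.092 (adjusted p = 0.0203) and XCP1 (AT4G35350), a protease gene of dying xylem cells, by 0.44 ± 0.097 (adjusted p = 0.0455). Of 21 genes, these 4 fell, where 0.936% of all genes fell, and all 21 lay below WT, at a median of -0.33. MYB46 was called in all 6 fits without 1 array, FLA11 in 2, COV1 in 1 and XCP1 in none. Root markers were measured beside them: 1 of 18 fell, the Casparian strip gene CASP5 (AT5G15290, -0.67 ± 0.15, adjusted p = 0.0460), and 12 of 18 lay below WT at a median of -0.11. The mean log2 level of the root list ranged from -0.11 to 0.050 in the labelled libraries and from -0.14 to 0.18 in WT. The part of root tissue in the changes of the wall genes was not tested.

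**Figure D4:**
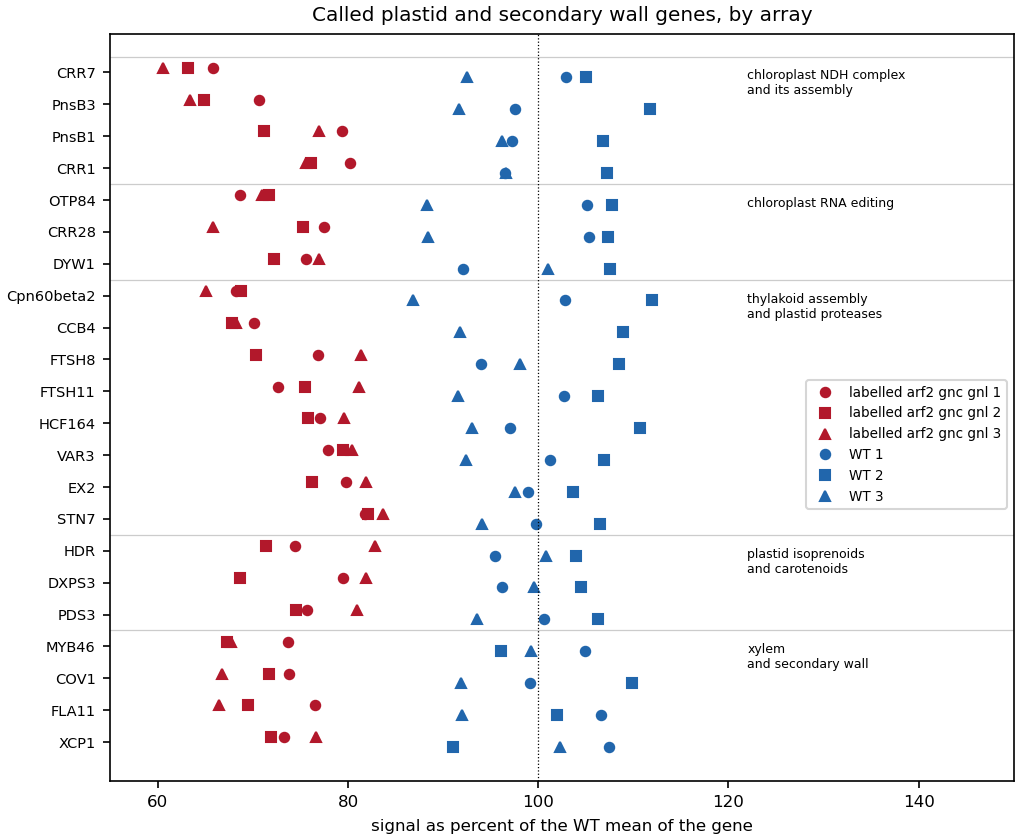
Signal of the 22 called genes of the plastid and secondary wall lists on each labelled array (red) and WT array (blue), as a percent of the WT mean of the gene. The labelled arrays lie between 60.5% and 83.6%, and the WT arrays between 86.8% and 112%.

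The largest falls after GNC were mostly stress genes and genes without a symbol. HSP17.4 (AT3G46230), a small heat shock protein gene, gave 17.7, 10.2 and 13.6 units in the labelled libraries, against 41.8, 41.8 and 39.4 units in WT. It was not well above background on any labelled array and was at least 1.92-fold lower (adjusted p = 0.00259). HSP17.6II (AT5G12020), of the same family, gave 26.2, 21.0 and 24.4 units in the labelled libraries, against 86.4, 62.9 and 64.2 units in WT and fell by 1.57 ± 0.27 on the log2 scale (adjusted p = 0.0141), with 2 of the labelled arrays well above background. GH9B15 (AT4G23560), a glycosyl hydrolase gene that passed the test (adjusted p = 0.00604), stayed near background on all 6 arrays, so no size is given. AT3G21360 (-1.31 ± 0.16, adjusted p = 0.00259), AT1G53540 (-1.31 ± 0.21, adjusted p = 0.00966) and AT2G32160 (-1.23 ± 0.21, adjusted p = 0.0135) followed. AT3G53310 gave 94.1, 94.3 and 94.2 units in the labelled libraries, against 218, 247 and 214 units in WT, with one of the 5 smallest p values (-1.26 ± 0.10, adjusted p = 3.63e-04). AT5G46871 was at least 1.63-fold lower, as it was not well above background in the labelled libraries (adjusted p = 0.00623).

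Heat shock genes included several falls. Of the 8 tested genes on the small heat shock protein list 3 fell, where 0.936% of all genes fell, and 3 lay above WT. AT1G53540, given above, is not on that list. The third that fell was HSP17.8 (AT1G07400, -0.48 ± 0.11, adjusted p = 0.0449). Without WT replicate 1 the list held 1 call, and 2 without each of the other arrays. HSP17.8 was called in none of these 6 fits and HSP17.6II in 4. The median was -0.45, and -0.15 among the 6 that passed a stricter filter on dim probes. Of 21 large chaperone and heat shock factor genes, 2 fell and 17 lay below WT, at a median of -0.17. HOP3 (AT4G12400), a co-chaperone gene, gave 1013, 989 and 1065 units in the labelled libraries, against 1439, 1564 and 1453 units in WT (-0.54 ± 0.059, adjusted p = 0.00177). HSP90.1 (AT5G52640), the heat-inducible cytosolic chaperone gene, gave 2409.5, 2496 and 2630.2 units in the labelled libraries, against 4370.1 and 3822 units in WT (n = 2 in WT after an outlier spot was removed) and fell by 0.70 ± 0.088 (adjusted p = 0.00441). HOP3 and HSP90.1 were called whichever array was left out.

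Genes that respond quickly to touch and wounding lay below WT in 20 of 24 cases, at a median of -0.22. ZAT10 (AT1G27730), a zinc finger repressor gene, gave 410.0, 488 and 476 units in the labelled libraries, against 1132, 853 and 771 units in WT and fell by 0.99 ± 0.16 on the log2 scale (adjusted p = 0.0127), while the other 23 did not pass. Without labelled replicate 1 it did not pass. Of all genes, 0.936% fell and 48.1% lay above WT. Further regulators among the largest falls were CML37 (AT5G42380), a calmodulin-like gene, at -1.21 ± 0.26 (adjusted p = 0.0399), and AT5G51190, listed as ethylene response factor ERF105, at -1.30 ± 0.27 (adjusted p = 0.0324). CML37 was called in none of the 6 fits without 1 array and AT5G51190 in 1.

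In nitrogen and sulphur metabolism the calls went both ways. The nitrate transporter genes NRT1.1 (AT1G12110), the root uptake transporter and sensor, and NRT1.7 (AT1G69870), which reloads nitrate from old leaves, rose by 0.42 ± 0.092 (adjusted p = 0.0432) and 0.61 ± 0.13 (adjusted p = 0.0350) log2 units. The asparaginase gene ASPGB1 (AT3G16150) gave 342, 329 and 394 units in the labelled libraries, against 941, 706 and 779.5 units in WT and fell by 1.18 ± 0.18 (adjusted p = 0.00709). Of 31 nitrate and nitrogen genes 2 rose, where 1.32% of all genes rose, and none fell. Of 36 sulphur supply and glucosinolate genes, BGLU28 (AT2G44460), a beta-glucosidase gene induced by sulphur shortage, gave 538, 497 and 435 units in the labelled libraries, against 1112, 1122 and 1082 units in WT (-1.18 ± 0.25, adjusted p = 0.0389), and CYP79B3 (AT2G22330), an enzyme of indole glucosinolate synthesis, gave 4551, 4883 and 4285 units in the labelled libraries, against 6474, 6568 and 6484 units in WT (-0.51 ± 0.087, adjusted p = 0.0141). Both fell, where 0.936% of all genes fell, and 34 did not pass. ASPGB1 was called in all 6 fits without 1 array, CYP79B3 in 2, and NRT1.1, NRT1.7 and BGLU28 in none.

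Hormone and ageing lists held a few single calls. The senescence regulator gene NAP (AT1G69490), a NAC factor that promotes leaf ageing, gave 1582, 1322 and 1279 units in the labelled libraries, against 2280.1, 3246 and 2978 units in WT and fell by 1.01 ± 0.13 on the log2 scale (adjusted p = 0.00401), and was called whichever array was left out. The abscisic acid hydroxylase gene CYP707A2 (AT2G29090), which removes the hormone during germination, fell by 0.61 ± 0.13 (adjusted p = 0.0375). Of the 32 abscisic acid and cold genes the other 31 did not pass, and 24 lay above WT at a median of 0.20. HFR1 (AT1G02340), a bHLH gene of light signalling, fell by 0.52 ± 0.11 (adjusted p = 0.0420). In the jasmonate list of 19, the defensin gene PDF1.2 (AT5G44420) gave 82.5, 89.7 and 28.4 units in the labelled libraries, against 5.24, 5.93 and 6.07 units in WT and rose at least 2.30-fold (adjusted p = 0.0482), and JR2 (AT4G23600), a cystine lyase gene, rose by 0.84 ± 0.18 (adjusted p = 0.0425). Over all genes, 1.32% rose and 0.936% fell. CYP707A2, PDF1.2 and JR2 were called in none of the 6 fits without 1 array, and HFR1 in 1.

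Lists without a call by limma covered the other pathways. They were the root hair, leaf mesophyll, guard cell and pollen markers, circadian clock (22 genes tested), phosphate starvation (27), iron supply (23), hypoxia (15), salicylate and defence (13), xyloglucan endotransglucosylases (29), expansins (25), and cell division and organ size (31). Their medians ran from -0.17 for phosphate starvation to 0.38 for the 2 pollen and flower genes tested. At an unadjusted p under 0.05 each held 1 to 3 genes, except for 8 xyloglucan endotransglucosylases, 5 expansins and 0 of the pollen and flower genes. Of all 19020 genes, 3574 were under that unadjusted threshold. In phosphate starvation 18 of 27 lay below WT. For it, the mean log2 level was -0.14, -0.093 and -0.67 in the labelled libraries and 0.054, -0.31 and 0.27 in WT, so 1 array of each group stood apart and the groups overlapped.

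**Figure D5:**
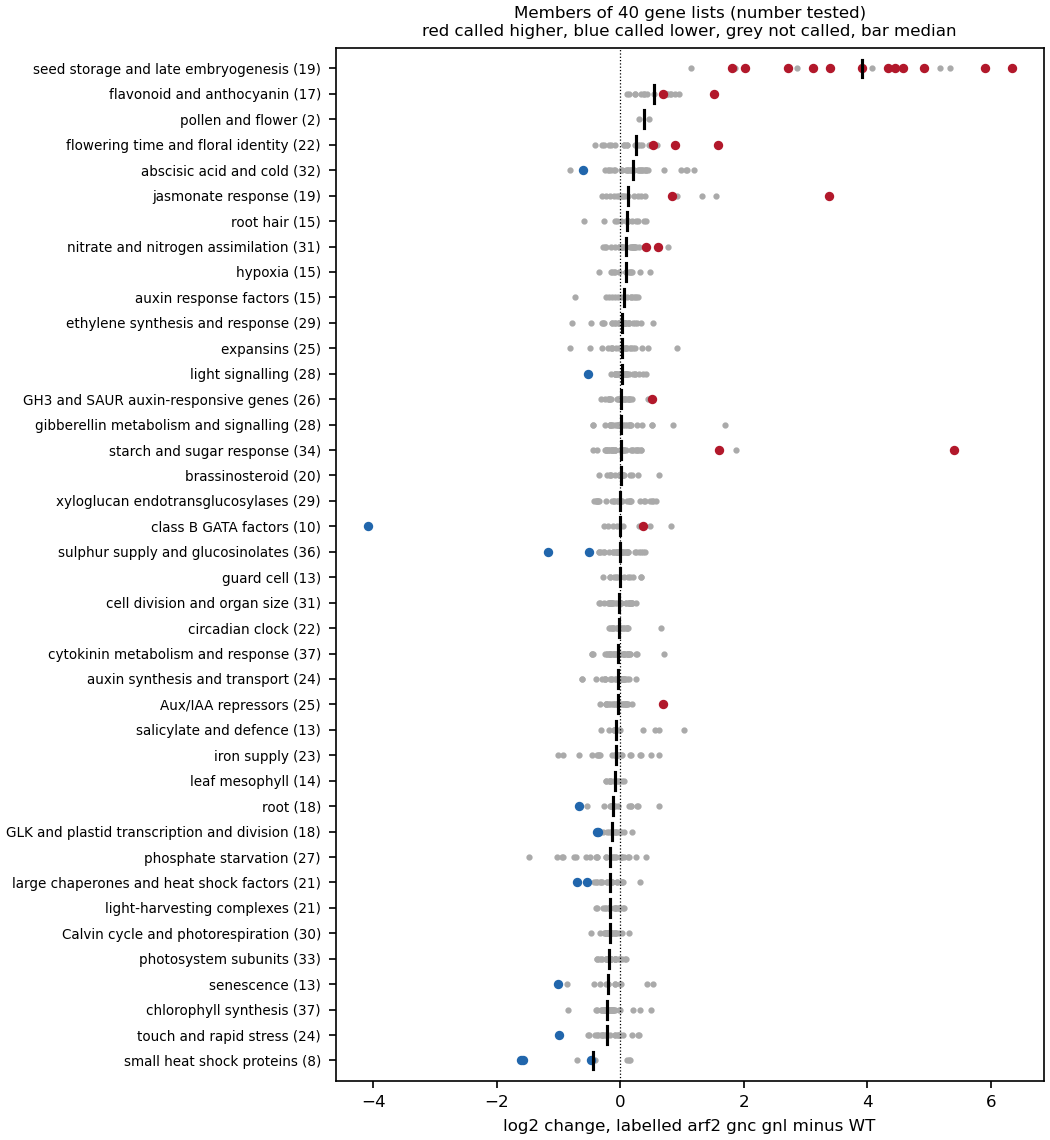
Log2 change of the labelled libraries minus WT for each tested member of the 40 gene lists, with the number tested in brackets and a bar at the median. The seed list at a median of 3.91 lies apart from all others, whose medians fall between -0.45 for small heat shock proteins and 0.55 for flavonoids.

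In the order of the annotation, 5 pairs of adjacent tested genes were called in the same direction, 4 of them higher, and no run was longer than 2. Over all genes, 1.32% rose and 0.936% fell. How many such pairs would arise without any link between neighbours was not tested, so the pairs are given as values only. One pair is BGAL12 and AT4G26130 beside GNL. The others that rose were AT4G18650 (2.12 ± 0.18) with AT4G18660 (1.59 ± 0.33), AT2G43580 (1.48 ± 0.20) with AT2G43590 (1.53 ± 0.17), and AT2G33520 (at least 1.71-fold higher) with scpl46 (0.40), a carboxypeptidase-like gene. The pair that fell was AT2G40520 (-0.73 ± 0.096) with AT2G40530 (-0.52 ± 0.096). AT2G43590 gave 7486, 8757 and 8942 units in the labelled libraries, against 3431, 2538 and 2794 units in WT and was called under normexp as well. Adjacent genes of one family can share signal where probes match more than one copy, which was not tested.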

How the data were processed

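Total RNA labelled with Cy3 of 4 genotypes, 3 samples each, was hybridised to 12 Agilent arrays in one colour. Per the file headers, the deposited intensity values are processed spot signals of Agilent Feature Extraction 10.7.3.1. The series' deposited value table held the same intensities, with 0 cells differing. Control spots and outlier-flagged spots were removed, spots were averaged per probe, and log2 signals had each array's 75th percentile subtracted. Probes entered the test if some genotype had them well above background on each of its 3 arrays and if no genotype had fewer than 2 values. Each of 19020 loci was represented by its brightest tested probe. Symbols came from RefSeq names for TAIR10.1. No coordinates or sequences are given.

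All 4 genotypes were fitted together in limma 3.58.1 (R 4.3.3) with 8 residual degrees of freedom, and p-values were adjusted by Benjamini-Hochberg over all loci at a threshold of 0.05. The number of arrays limits the precision. In simulated data for this comparison, 95 of 100 genes changed by 1 log2 unit and 100 of 100 changed by 2 were recovered. The simulation used independent noise of the size the fit had estimated. It held no slide or background effect, so it does not measure recovery in their presence. Named genes are ARF2, GNC and GNL, the 12 largest called changes each way without overlap, the 5 smallest p-values, and up to 5 called members each way per list. The members and lists were chosen with earlier results of these data known. Alternatives were quantile normalization, normexp (offset 50, on median spot signal), other filters, the mean of probes, only the 6 arrays, slide or replicate blocks, a minimum change, and leaving out each array.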

Additional observations from a re-analysis of the deposited data

Results flagged for a closer look

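Probes without a locus identifier were left out of the comparison by gene and carried signal of their own. Of 9318 such probes, 3297 were bright enough to be tested, and 40 of them (1.21%) were called by limma, 29 higher and 11 lower in the labelled libraries. The probe with the largest change, A_84_P807936, gave 12159, 8768 and 2866 units in the labelled libraries, against 258, 44.0 and 58.1 units in WT, a log2 change of 6.27 ± 0.97 (SE, n = 3 each, adjusted p = 0.00803). Its labelled arrays were all above its WT arrays, with labelled replicate 3 the lowest of them. No gene is given to these probes here.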

How the results depend on the processing

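The number of called genes depended on several choices, and the cause was not tested. Against 430 genes (252 higher, 178 lower), normexp gave 15 (8 higher, 7 lower), no filter on dim probes 220 (145 and 75), only the 6 arrays compared 698 (429 and 269), slide as a fixed block 6 (3 and 3) and a test against a change of at least 1.5-fold 55 (52 and 3). Leaving out 1 array gave 128 to 218 genes, 92 to 155 higher and 36 to 78 lower. Quantile normalization gave 515, a stricter filter 330, the mean of all probes 430 and slide as a random block 346. Quantile normalization put 53% of the calls higher in the labelled libraries and normexp 53.3%, against 58.6%.

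ARF2 (-0.73) and GNL (0.81) passed only with the 6 arrays compared, and ARF2 was at 0.079 with slide as a fixed block. Normexp turned IAA34 to -0.52 and GH3.9 to -0.20. A fit with the replicate number as a block called 374 genes (238 higher, 136 lower), 306 of them among the 430. Deviations of same-numbered libraries correlated at 0.0216, -0.147 and -0.0818, so the numbers were not taken to pair the samples. The value table of the series equalled the scanner signal in every cell and gave no separate values. Dim genes are limited by signal over background: 57 of the 252 genes that rose were not well above it on any WT array.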

Other observations

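Further called genes outside the lists were chosen after their values were seen and are given as values. M17 (AT2G41260), a late embryogenesis abundant protein gene, gave 3391, 3256 and 1802 units in the labelled libraries, against 326, 459.7 and 446 units in WT, and it rose by 2.74 ± 0.30 log2 units (adjusted p = 0.00175). PER1 (AT1G48130), a peroxiredoxin gene known from seeds, gave 2739.6, 2143 and 951 units in the labelled libraries, against 151, 176 and 233 units in WT (3.27 ± 0.43, adjusted p = 0.00398). SDH2-3 (AT5G65165), a subunit gene of succinate dehydrogenase known from embryos, gave 191, 169 and 76.0 units in the labelled libraries, against 8.43, 8.50 and 17.2 units in WT (adjusted p = 0.00107). All labelled arrays were above all WT arrays in each of these 3 genes, and each was called by limma whichever array was left out.

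Genes of other processes were called as stably. GSTF2 (AT4G02520), a glutathione transferase gene, gave 5755, 6556 and 6921 units in the labelled libraries, against 3559.5, 3499 and 3275 units in WT and rose by 0.89 ± 0.13 (adjusted p = 0.00604). NIT4 (AT5G22300), a nitrilase gene of cyanide detoxification, gave 409, 387 and 436 units in the labelled libraries, against 647, 689 and 662 units in WT and fell by 0.70 ± 0.079 on the log2 scale (adjusted p = 0.00177). PGL5 (AT5G24420), a phosphogluconolactonase gene, gave 472, 397 and 493 units in the labelled libraries, against 941, 1139.7 and 967 units in WT and fell by 1.16 ± 0.14 (adjusted p = 0.00253). M17, GSTF2, NIT4 and PGL5 were also called after the normexp correction.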
